A study of Rattus norvegicus with 6 samples.

Results

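Cytosolic RNA sensors and oligoadenylate synthetases were described in the rostral ventrolateral medulla of spontaneously hypertensive rats (SHR) and of a normotensive comparison strain. The medulla region is part of the brainstem and holds neurons that drive sympathetic outflow to the heart and vessels. The group comprised 10 named genes: the helicases Ddx58, Ifih1, Dhx58 and Ddx60, the synthetase family genes Oas1a, Oas1b, Oas2, Oas3 and Oasl, and the kinase gene Eif2ak2. Every probe set whose gene symbol in the deposited table was exactly one of these names was taken. That gave 10 probe sets for 8 genes, out of 31042 probe sets that were not array controls. No probe set carried the symbol Oas2 or Oas3 alone, so these 2 genes were not analysed here. The genes were chosen by function, but with the strain difference of interferon-induced transcripts on these same arrays, SHR against WKY, already known. Their strain differences below are therefore a description and are not offered as evidence.

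The series held 6 arrays of untreated rats that weighed between 250 and 350 g. Of them, 3 carried RNA of SHR, a line bred for spontaneous hypertension, and 3 carried RNA of WKY rats, spelled Wistar-Kyoko in the labels and taken here as Wistar-Kyoto. The labels number the samples 1 to 3 within each strain and describe 3 rats of each, so n counts animals. Age and sex are not given in the sources used here. WKY is a separate inbred strain and not a littermate control, so every sequence difference between the strains goes with the group, and on a hybridisation array a mismatch under a probe cannot be told apart from less RNA.

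These proteins detect viral or misplaced double-stranded RNA in the cytosol. The helicases RIG-I (Ddx58) and MDA5 (Ifih1) bind such RNA and signal through the mitochondrial adaptor MAVS to induce type I interferon, and interferon in turn raises their own transcripts. The synthetases answer the same RNA by making 2'-5' oligoadenylates, second messengers that lead to the breakdown of RNA, while the kinase PKR (Eif2ak2) phosphorylates eIF2 and slows translation. In the brain they are expressed at a low basal level by several cell types.

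Many interferon-driven genes carry an interferon-stimulated response element in their promoters. The windows of Ddx60 and Oas1a, whose strain differences were the largest of the group, are shown with those of the Oas1a relative Oas1b and of Eif2ak2. RefSeq (GRCr8) windows running from 250 bases before to 50 bases after the gene start were found for 6 of the 8 genes, those of Ifih1, Ddx60, Oas1a, Oas1b, Oasl and Eif2ak2. Capitals mark each match to the response element core, which is GAAA, any 2 bases and again GAAA, searched on both strands. The windows are given 5′ to 3′ along the gene, and lie at chr16:33208790-33209089 (minus strand), chr12:41330216-41330515 (plus), chr12:41395803-41396102 (minus) and chr6:21940904-21941203 (plus).
Ddx60: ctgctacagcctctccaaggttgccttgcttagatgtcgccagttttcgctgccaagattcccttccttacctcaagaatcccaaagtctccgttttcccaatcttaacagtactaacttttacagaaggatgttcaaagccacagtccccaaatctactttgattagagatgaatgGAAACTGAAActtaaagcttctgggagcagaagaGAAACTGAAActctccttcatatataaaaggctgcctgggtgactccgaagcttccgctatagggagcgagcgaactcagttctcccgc
Oas1a: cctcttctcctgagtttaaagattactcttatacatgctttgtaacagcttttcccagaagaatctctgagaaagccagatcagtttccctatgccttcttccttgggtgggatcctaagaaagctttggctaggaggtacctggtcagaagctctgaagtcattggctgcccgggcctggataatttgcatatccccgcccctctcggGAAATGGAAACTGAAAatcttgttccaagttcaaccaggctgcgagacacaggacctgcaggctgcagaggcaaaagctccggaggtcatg
Oas1b: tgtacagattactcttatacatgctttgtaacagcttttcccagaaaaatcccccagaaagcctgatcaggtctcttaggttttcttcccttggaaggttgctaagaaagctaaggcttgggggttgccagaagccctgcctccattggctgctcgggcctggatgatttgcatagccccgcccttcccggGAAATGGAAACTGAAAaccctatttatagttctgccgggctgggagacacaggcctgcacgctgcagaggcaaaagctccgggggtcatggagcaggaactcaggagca
Eif2ak2: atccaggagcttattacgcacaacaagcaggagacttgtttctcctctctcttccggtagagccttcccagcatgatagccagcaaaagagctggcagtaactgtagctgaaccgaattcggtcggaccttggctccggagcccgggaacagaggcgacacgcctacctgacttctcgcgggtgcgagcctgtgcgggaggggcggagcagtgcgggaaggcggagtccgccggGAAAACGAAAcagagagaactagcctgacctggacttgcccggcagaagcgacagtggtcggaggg

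The core was found in 5 of the 6 windows, against 3.92% of 33469 RefSeq rat promoter windows of the same length. Ddx60 held 2 separate matches, whose first bases lay 73 and 39 bases before the start. Oas1a and Oas1b each held a pair of matches that overlap by their shared GAAA, and their first bases lay 41 and 35 bases before the start in Oas1a and 59 and 53 in Oas1b. Eif2ak2 held 1 match, 16 bases before the start, and Ifih1 held 1 at 59 bases. The Oasl window held none of these letters. All matches read along the gene's own strand. The gamma-activated-site-like motif TTCNNNGAA, whose reverse complement is itself, was found only in the Oas1a and Oas1b windows among the 6, against 8.87% of all windows. Oas1a and Oas1b windows shared 82.9% of 281 aligned bases, whereas the other pairs of the 6 genes shared between 54.9% and 64.4%. TATAAA was found in 2 of the 6, Ddx60 and (on the opposite strand) Oas1b, against 14.2% of all windows. A match describes these letters in the reference strain's sequence. Whether SHR or WKY carries them was not tested.

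Signals are given on the log2 scale of the deposited MAS5 values, in which a difference of 1 is a 2-fold difference. MAS5 also gives each probe set a detection call on each array, Present, Marginal or Absent. Of the 10 probe sets, 7 were Present on all 6 arrays and 3 were Absent on all 6, so none passed the filter, Present on at least 3 arrays, through 1 strain alone. The 7 stood for 6 genes: Ddx58, Dhx58 with 2 sets, Ddx60, Oas1a, Oasl and Eif2ak2. The log2 difference is SHR minus WKY throughout, with limma's moderated standard error, and a probe set was called at a Benjamini-Hochberg adjusted p under 0.05 over all 20790 probe sets that passed the filter. Signals of different probe sets were not set against each other, since each binds with its own strength.

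In each of the 7 probe sets the 3 SHR animals lay below the 3 WKY animals. This was so for 7.76% of all probe sets tested. The fit called 3 of the 7, in Ddx58, Ddx60 and Oas1a, all lower in SHR, where 0.399% of all probe sets were called lower and 0.924% in either direction. Nothing is read from these counts, because this contrast is what brought the genes together. The median log2 difference of the 7 was -0.73, beside 0.00139 for all tested probe sets. The differences ran from -0.21 in Oasl to -1.88 in Ddx60. The tissue was not separated into cells, so fewer cells of a type and less RNA per cell cannot be told apart.

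**Figure D1:**
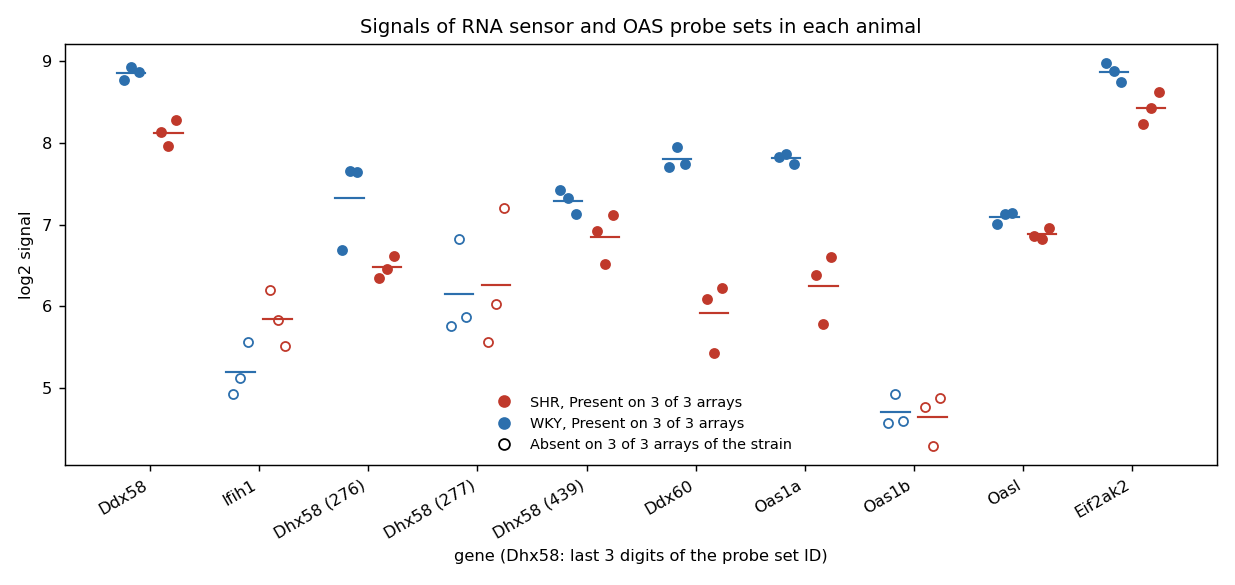
Log2 signal (y axis) of each of the 10 probe sets (x axis) in each animal, with WKY in blue, SHR in red and a bar at the mean of 3 animals. Filled points were Present and open points Absent on all 3 arrays of the strain. In the 7 filled sets every SHR point lies below every WKY point, by the widest gap in Ddx60 (1.48) and the narrowest in the second measured Dhx58 set (0.0073).

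Among the helicases, Ddx60 differed most. This interferon-induced helicase, described as a partner of RIG-I, had log2 signals of 6.09, 5.43 and 6.23 in SHR animals 1 to 3 and of 7.71, 7.95 and 7.74 in WKY animals 1 to 3. The groups were far apart, with the highest SHR animal 1.48 below the lowest WKY animal. On the linear scale the signals ran from 43.1 to 74.9 in SHR and from 209 to 247 in WKY. The means were 5.92 ± 0.43 and 7.80 ± 0.13 (SD, n = 3 each), a log2 difference of -1.88 ± 0.25 (SE), or 3.69-fold lower in SHR. This was the 18th largest fall of log2 signal among all tested probe sets. The probe set aligns to chromosome 16 at 29666920 to 29667289 (minus strand, Rnor5.0, as in the deposited annotation). The call was lost without WKY replicate 2, at a difference of -1.81. With 64 added to the linear signals the difference was -1.19 and still called.

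Ddx58 encodes RIG-I, which recognises short double-stranded RNA with a free triphosphate end; its current RefSeq symbol is Rig1. Its log2 signals were 8.13, 7.97 and 8.28 in SHR and 8.77, 8.93 and 8.87 in WKY. Each strain was tight, and the gap between the highest SHR and the lowest WKY animal was 0.49. The means were 8.13 ± 0.15 and 8.86 ± 0.08 (SD, n = 3 each), a log2 difference of -0.73 ± 0.13 (SE) or 1.66-fold lower in SHR. The set aligns to chromosome 5 at 61033901 to 61034430 (minus strand, Rnor5.0). Its call was lost without SHR replicate 2, without WKY replicate 1, 2 or 3, without a variance trend and with the replicate number as a block, at differences between -0.65 and -0.77.

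Dhx58 encodes LGP2, a RIG-I relative without the signalling domains that tunes the other helicases. Its 3 probe sets, all on chromosome 10 between 88393940 and 88396858 (Rnor5.0), did not give one picture. The set 1385276_a_at read 6.35, 6.46 and 6.62 in SHR and 6.69, 7.66 and 7.64 in WKY. WKY animal 1 lay only 0.07 above the highest SHR animal, and the other two WKY animals lay well above both. The means were 6.47 ± 0.14 and 7.33 ± 0.56 (SD, n = 3 each), and the log2 difference of -0.86 ± 0.28 (SE) was not called. Without WKY replicate 1 it was -1.18, and also not called. The set 1385439_x_at read 6.92, 6.52 and 7.12 in SHR and 7.42, 7.33 and 7.13 in WKY. Here the strains all but touched, with SHR animal 3 only 0.0073 below WKY animal 3, and the difference of -0.44 ± 0.22 (SE) was not called. Without SHR replicate 2 it was -0.27. The third, 1385277_x_at, shares its target sequence with the first and was Absent on all 6 arrays, with signals between 5.56 and 7.21 in SHR and between 5.76 and 6.82 in WKY. The suffix x marks sets in which some probes also match other transcripts.

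Ifih1 encodes MDA5, the sensor of long double-stranded RNA. Its only probe set was Absent on all 6 arrays, and the deposited annotation gives it no genome alignment. The signals were 6.20, 5.83 and 5.51 in SHR and 4.92, 5.12 and 5.56 in WKY. They overlapped, and as neither strain was above background no fold is given.

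Among the synthetases, Oas1a was the one with a large difference. It read 6.38, 5.78 and 6.60 in SHR and 7.83, 7.87 and 7.74 in WKY. The WKY animals were nearly equal, the SHR animals were more spread, and 1.14 separated the groups. The means were 6.25 ± 0.42 and 7.82 ± 0.07 (SD, n = 3 each), which gives a log2 difference of -1.56 ± 0.24 (SE), or 2.95-fold lower in SHR. Linear signals were 55.0 to 96.9 in SHR and 214 to 234 in WKY. The set aligns to chromosome 12 at 43064735 to 43075396 (plus strand, Rnor5.0). Rats carry several Oas1 genes of similar sequence next to each other, so how much of this signal comes from Oas1a itself was not resolved. Leaving out any of the 3 WKY animals ended the call, as did a fit without a variance trend. With 64 added to the linear signals the difference was -1.03 and still called.

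Oas1b, a close relative of Oas1a whose mouse counterpart governs resistance to flaviviruses, was Absent on all 6 arrays. Its set aligns to chromosome 12 at 43116713 to 43127900 (minus strand, Rnor5.0). Signals were 4.76, 4.29 and 4.88 in SHR and 4.57, 4.93 and 4.60 in WKY, which overlapped, so no strain difference was detectable. Oasl encodes an OAS-like protein; its mouse ortholog restrains interferon production by blocking translation of Irf7. Its signals were 6.86, 6.82 and 6.96 in SHR and 7.01, 7.13 and 7.14 in WKY. They did not overlap, but by only 0.04. The difference of -0.21 ± 0.19 (SE) was not called, and it was the smallest of the 7. The deposited annotation aligns its set to chromosome 12 at 49237745 to 49237944 (minus strand, Rnor5.0) with a percentage of only 49.75, against 98.17 for Oas1a.

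Eif2ak2 encodes PKR, the kinase that double-stranded RNA switches on to phosphorylate eIF2. It read 8.24, 8.43 and 8.62 in SHR and 8.98, 8.88 and 8.75 in WKY. The highest SHR animal lay 0.13 below the lowest WKY animal. The means were 8.43 ± 0.19 and 8.87 ± 0.12 (SD, n = 3 each), a log2 difference of -0.44 ± 0.14 (SE), or 1.36-fold lower in SHR, which was not called. Its set aligns to chromosome 6 at 1420469 to 1456636 (minus strand, Rnor5.0), with a percentage of only 62.53 in the deposited annotation. The 3 other eIF2 kinases, which answer heme lack, unfolded proteins and amino acid lack, were measured beside it. Eif2ak1 differed by -0.01 ± 0.09, Eif2ak3 by 0.07 ± 0.16 and Eif2ak4 by 0.15 ± 0.13 (SE), and their strains overlapped. The difference between Eif2ak2 and these kinases was not tested.

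**Figure D2:**
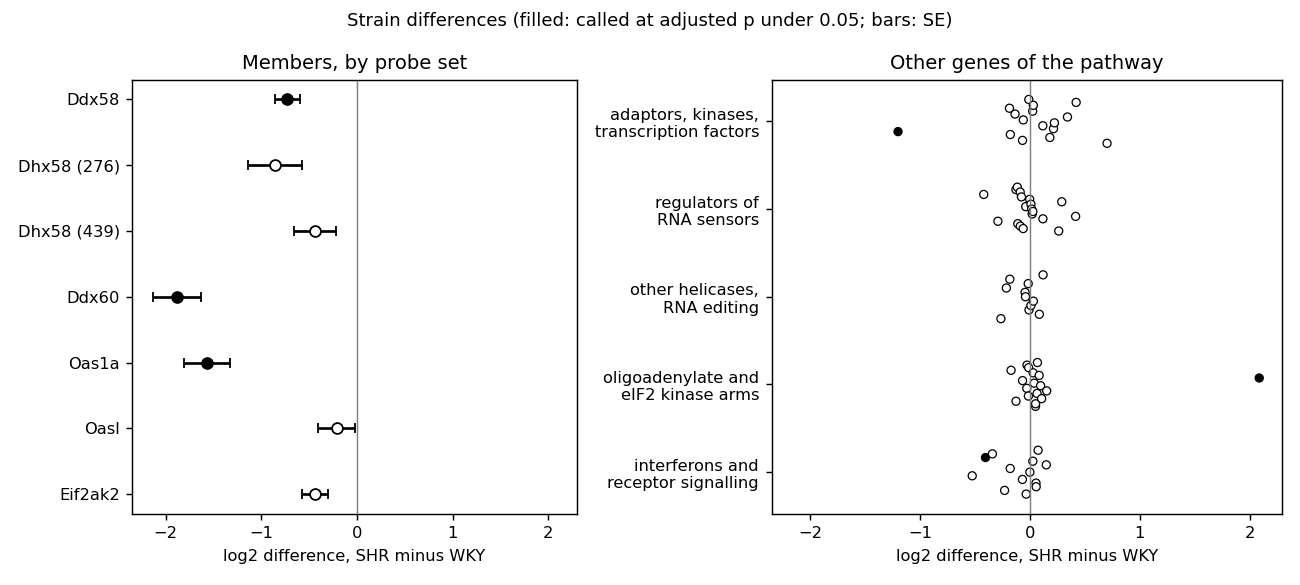
Log2 difference, SHR minus WKY (x axis), of the 7 measured probe sets of RNA sensors and OAS enzymes with limma's SE (left), and of 77 other genes of the pathway in 5 lists, 1 point each (right). Filled points were called at an adjusted p under 0.05. The members lie between -1.88 and -0.21, and the single genes of the lists between -1.20 and 2.08.

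Animals of one strain also differed from each other. SHR animal 3 had the highest signal of its strain in all 7 probe sets, where it was highest in 32.3% of all tested probe sets. SHR animal 2 was the lowest in 5 of the 7, among them Ddx58, Ddx60, Oas1a and Oasl, where it was lowest in 32.6% of all. The exceptions were Eif2ak2 and the first Dhx58 set, in which SHR animal 1 was lowest. In WKY no animal held 1 position throughout: animal 2 was highest in 4 of 7 and lowest in none, and animal 1 was lowest in 4. Averaged over 1 probe set for each of the 6 genes, after each gene's own mean was subtracted, the profile was -0.41, -0.69 and -0.21 in SHR animals 1 to 3 and 0.44, 0.50 and 0.38 in WKY animals 1 to 3. The SHR animals thus spanned 0.48 and the WKY animals 0.12 on this scale. The 7 sets share the same 6 arrays, so they are not separate observations of an animal.

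**Figure D3:**
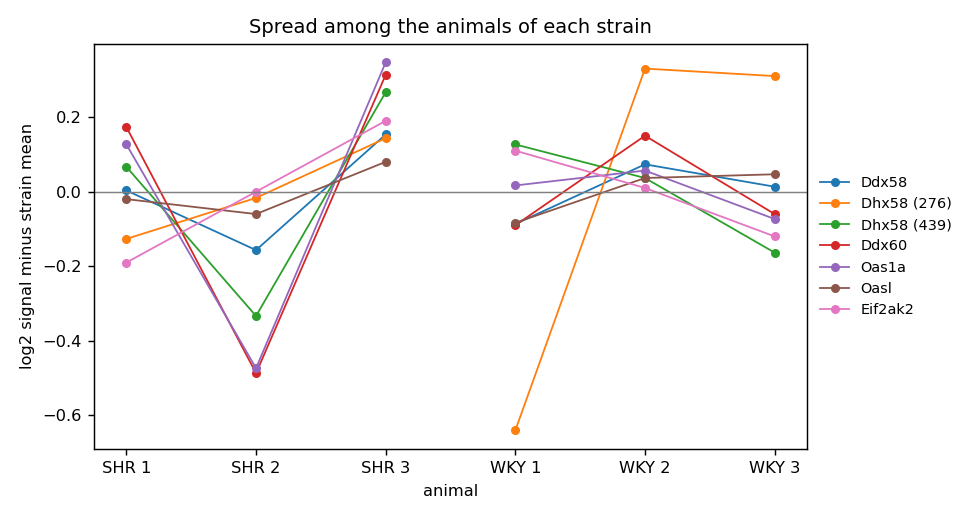
Log2 signal minus the mean of the animal's own strain (y axis) for each of the 7 measured probe sets in each animal (x axis). Lines join the values of 1 probe set within a strain and imply no order. SHR animal 3 is highest in all 7 sets, and WKY animal 1 is far below the others in the first Dhx58 set.

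Genes whose values over the 6 arrays, less their own mean, lay nearest to this mean profile were sought outside the members and the pathway lists. The measure was the root mean square difference from the profile, in log2 units. It counts the size of a difference as well as the order of the animals. The median gene differed from the profile by 0.48. RT1-EC2 (0.08), a class I histocompatibility gene with near-identical copies, Retsat (0.08), retinol saturase, and Rnf213 (0.12), a large ubiquitin ligase, were nearest. Alas2 (0.13), the erythroid enzyme of heme synthesis and one of the erythroid markers below, and Tpst1 (0.13), a tyrosylprotein sulfotransferase, followed. Retsat, for example, read 10.21, 9.81 and 10.20 in SHR and 10.82, 10.90 and 10.86 in WKY. Of the members, Ddx58 was nearest to the profile at 0.10, and Ddx60 the farthest at 0.52. Ddx60 also had the largest strain difference of the group, -1.88. As in the profile, its lowest SHR animal was 2, and its highest animals were SHR 3 and WKY 2.

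The rest of the RNA sensing pathway was described by 5 lists of 118 genes, of which 77 had a probe set that passed the filter. For each gene the passing probe set with the highest mean signal was used. The fit called 2 of the 77 lower in SHR and 1 higher, where 0.432% of all 10418 genes were called lower, 0.442% higher and 0.873% in either direction. Of the 77, 39 lay below 0, or 50.6%, beside 51.4% of all genes, and their median difference was -0.00147.

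Among 16 measured adaptors, kinases and transcription factors that carry the sensors' signal, 1 was called, Irf7, which amplifies interferon production. Its log2 signals were 8.05, 7.65 and 8.33 in SHR and 9.14, 9.43 and 9.06 in WKY, with SHR animals 2 and 3 again the lowest and highest of their strain. The difference was -1.20 ± 0.18 (SE), 2.29-fold lower in SHR (limma, adjusted p = 0.0116, n = 3 each). Without WKY animal 1 or 2, or without a variance trend, it was no longer called. Mavs, the adaptor directly below RIG-I and MDA5, differed by 0.21 ± 0.21, the kinase gene Tbk1 by 0.03 ± 0.08 and Irf3 by -0.18 ± 0.11 (SE), and none was called. Casp8 had the second smallest p of the list, at 0.70 ± 0.32 (limma, adjusted p = 0.537). Mavs, Tbk1 and Irf3 were picked for their place in the pathway after their values were seen.

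Interferons and their receptor signalling held 13 measured genes, of which 1 was called, lower in SHR. Limma gave 4 of the 13 an unadjusted p under 0.05, of which 3 were lower in SHR and 1 higher. Irf9, a DNA-binding factor of the type I interferon response, differed by -0.52 ± 0.15 (SE; limma, adjusted p = 0.206). The interferon beta gene Ifnb1 was Absent on all 6 arrays and Ifng was Present on 1 of 3 SHR arrays and on no WKY array.

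Limma called none of 19 regulators of the sensors, with 2 at an unadjusted p under 0.05. These were Nlrx1, a mitochondrial inhibitor of MAVS signalling, at 0.42 ± 0.13, and Trim25, the ubiquitin ligase of RIG-I, at -0.42 ± 0.18 (SE; adjusted p = 0.247 and 0.504). Limma called none of 11 other RNA helicases and editing enzymes, with 1 at an unadjusted p under 0.05. This was the RNA editing gene Adar, at -0.26 ± 0.11 (SE; adjusted p = 0.489), whose other passing sets differed by -0.24 and -0.43. Snrnp200, a spliceosomal helicase, differed by 0.12 ± 0.08 (SE; adjusted p = 0.691), and its other set by -0.06. Of 18 measured genes of the oligoadenylate and eIF2 kinase arms, 1 was called higher and none lower, and the median was 0.05. Ppp1r15b, a regulator of eIF2 dephosphorylation, differed by -0.17 ± 0.08 (SE; limma, adjusted p = 0.54), and its other set by 0.09.

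**Figure D4:**
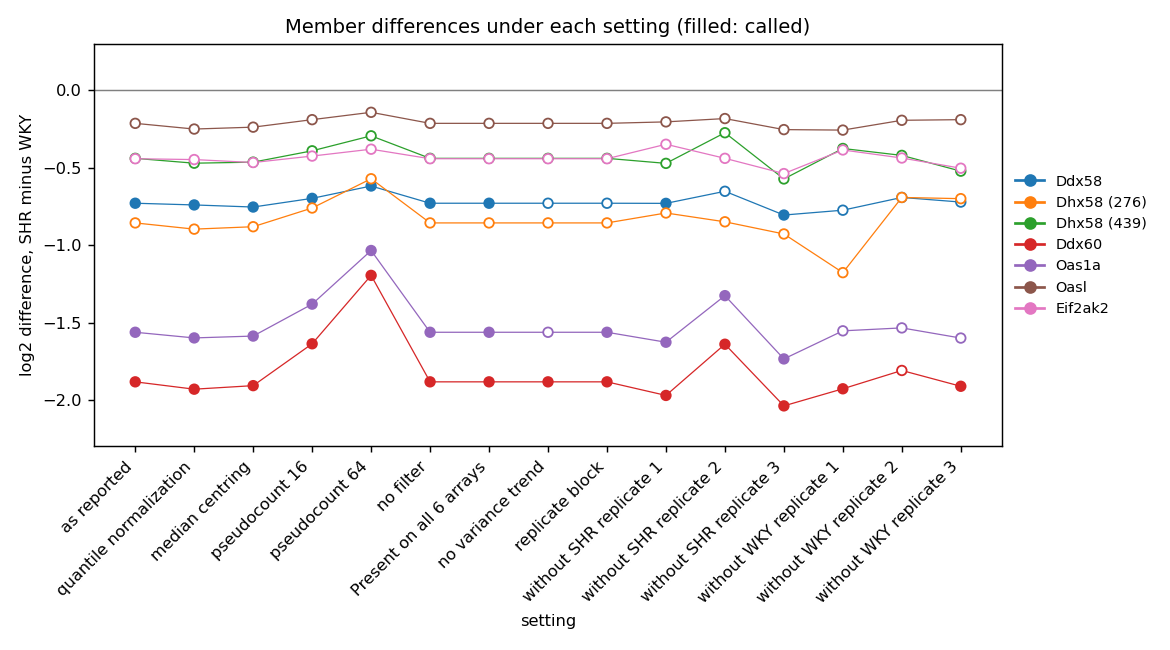
Log2 difference, SHR minus WKY (y axis), of the 7 measured probe sets under the reported setting and 14 alternatives (x axis), with called values filled. All differences stay below 0, and those of Ddx60 and Oas1a shrink to -1.19 and -1.03 when 64 is added to the linear signals.

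Genes next to the members on the chromosomes were compared with them, a comparison chosen after the members' values were seen. For each of the 8 genes the 3 nearest measured protein-coding genes on either side in the RefSeq order were taken, which gave 42 genes outside the members. Limma called none of the 42, with 6 at an unadjusted p under 0.05, and 21 of them lay below 0, with a median of -0.00177. As only 0.873% of all genes were called in either direction, the lack of a call does not show that the neighbours were alike between strains. Fewer than 2062 of all 20790 tested probe sets had an unadjusted p under 0.05, since Casp8 held that rank at 0.053 (limma). By share, 6 of 42 is not less than that. Around Oas1a the 6 neighbours differed by between -0.06 and 0.30, among them Ptpn11 at 0.15 and Rpl6 at -0.02. Next to Ddx58, Aco1 differed by -0.12 and Topors by 0.17. The largest value was beside Ddx60, in Palld (named from its gene ID), a cytoskeletal gene, at -0.76 ± 0.23 (SE; limma, adjusted p = 0.247).

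**Figure D5:**
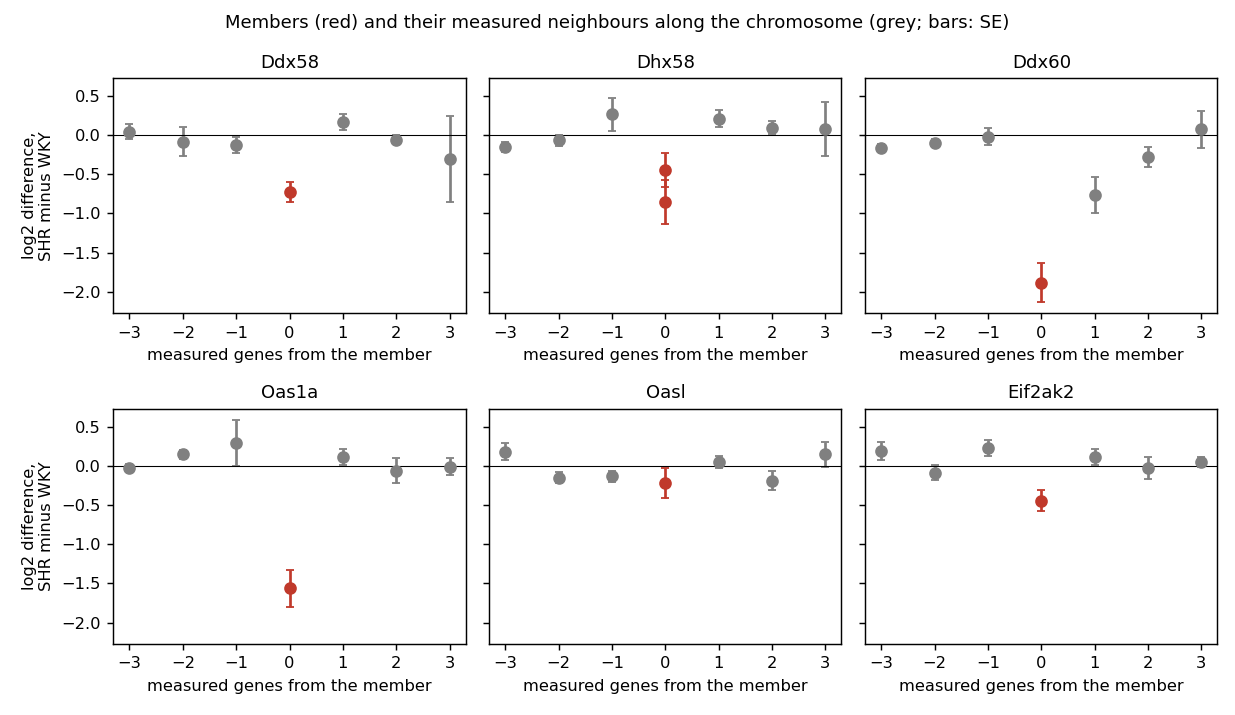
Log2 difference, SHR minus WKY (y axis), with limma's SE, of 6 members at position 0 (red) and of the 3 nearest measured genes on either side (grey), by order along the chromosome (x axis). Dhx58 has 2 measured probe sets. The grey points lie between -0.76 and 0.30.

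The arrays were alike in overall signal, with between 64.8% and 67.0% of probe sets Present and array medians between 7.43 and 7.47 log2. Cell type markers were checked by the summed linear signal of the measured genes of each list, those whose probe set passed the filter. Such a sum is set mostly by the brightest genes of its list. Medulla markers, among them the catecholamine genes Th and Dbh and Hox genes of hindbrain position, were measured for 7 of 9 on the array, with Slc6a5 Absent on all arrays. Their sums overlapped, at 5097 to 7462 in SHR and 6922 to 8709 in WKY, while 6 of the 7 genes lay below 0, with a median log2 difference of -0.35. The 3 measured Hox genes were among them, Hoxa4 at -0.35 ± 0.15, Hoxa5 at -0.99 ± 0.32 and Hoxb5 at -1.52 ± 0.37 (SE). Hoxb5 read 6.71, 8.55 and 7.51 in SHR and 9.36, 9.22 and 8.75 in WKY. Th varied widely within each strain, with linear signals from 751 to 2029 in SHR and from 458 to 3197 in WKY. Microglial markers, of which 8 of 10 were measured and Cd68 was Absent on all arrays, summed to 3300 to 4095 in SHR and 3289 to 3819 in WKY. Oligodendrocyte markers were lower in SHR in 7 of 7, with sums of 79063 to 84740 against 85505 to 91667 and a median log2 difference of -0.08. Among 9 leukocyte markers 7 were Absent on all arrays, including Cd3e, Cd8a and Ms4a1, and the 2 that were measured summed to 225 to 350 in SHR and 159 to 185 in WKY. Of these, Ptprc overlapped between strains and S100a9, a neutrophil gene, did not, at 7.10, 6.64 and 6.14 in SHR and 5.04, 5.11 and 4.64 in WKY. S100a9 was Present on all 3 SHR arrays and Absent on all 3 WKY arrays. It thus passed the filter through SHR alone, and no fold is given. Endothelial and mural markers summed to 4865 to 6718 in SHR and 6058 to 6433 in WKY. Of the 8 measured, 7 lay below 0, with a median log2 difference of -0.15 and Vwf, a marker of endothelium, at -0.85 ± 0.19 (SE). Both measured erythroid markers were lower in SHR, with sums of 4610 to 5825 against 5243 to 8800. Hbb made up most of these sums and differed by -0.38 ± 0.16 (SE), with strains that overlapped. Alas2 differed by -0.70 ± 0.19 (SE), with strains that did not. Neuronal sums, 43664 to 45864 and 43188 to 48144, and astrocyte sums, 42891 to 51580 and 48404 to 51859, overlapped. Below 0 lay 3 of 5 neuronal, 3 of 7 astrocyte and 2 of 8 microglial markers. Limma called none of the 46 measured marker genes, with 10 at an unadjusted p under 0.05. As only 0.873% of all genes were called in either direction, the lack of a call does not show that the markers were alike. Fewer than 2062 of all 20790 tested probe sets had an unadjusted p under 0.05, since Casp8 held that rank at 0.053 (limma). By share, 10 of 46 is more than that. SHR animal 2, often the lowest of its strain in the members, had the lowest SHR sum for astrocyte, microglial, leukocyte, endothelial and erythroid markers. For medulla, neuronal and oligodendrocyte markers another SHR animal was lowest. The part of these marker differences, between strains or animals, in the sensor and OAS values was not tested.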

How the data were processed

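RNA of the rostral ventrolateral medulla of 3 SHR and 3 WKY rats was hybridised to Affymetrix rat arrays that read the 3' ends of transcripts, and samples were grouped by their titles. The deposited files give a log2 signal and a detection call per probe set and, separately, the linear signal intensity. Per the submitters' processing notes the authors used MAS5, with no version stated. Each deposited log2 value was the log2 of the deposited intensity floored at 1, to within 8.2e-06, and the trimmed mean intensity was 500.1 on every array, which shows a common scaling before deposit.

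No normalization was added. Of 31099 probe sets, 57 controls were removed, and the 20790 Present on at least 3 arrays entered limma 3.58.1 (R 4.3.3), fitted with lmFit on strain alone and eBayes with a variance trend. Tests were 2-sided, with Benjamini-Hochberg adjustment over all these probe sets. The steps were checked on simulated data. Precision is set by the 3 animals per strain. The median standard error of a log2 difference was 0.15 over all tested probe sets and 0.22 over the measured member sets.

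The members and the gene lists were chosen with earlier results of these data known. The genes named are the members, every called gene and the 2 smallest p-values of each pathway list, and the 5 genes nearest to the members' mean profile; others are marked. Of the genes that this rule allows, 2 are not reported here. Promoter windows were taken from RefSeq and aligned with Biopython 1.88. Protein sequences were not used here. Settings tried were quantile normalization, centring on medians, pseudocounts of 16 and 64, 2 other filters, no variance trend, the replicate number as a block, another choice of probe set for a gene, and leaving out each animal. Same-numbered animals of the strains correlated at 0.08, -0.01 and 0.07 in their deviations from the strain means. With so few animals, these values neither show a pairing by number nor exclude one.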

Additional observations from a re-analysis of the deposited data

How the results depend on the processing

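The differences of all 7 measured member probe sets stayed below 0 under all 14 alternatives. Of these 98 values, 87 stayed on the same side of the threshold and 11 lost a call, 6 for Ddx58, 4 for Oas1a and 1 for Ddx60. Without a variance trend 1 member probe set was called in place of 3 (Ddx60), and 1 pathway gene in place of 3. Leaving out 1 animal at a time gave 0 to 3 called member probe sets, with 1, 0 and 1 without WKY replicate 1, 2 and 3, and 1 to 3 called pathway genes. Over all probe sets 192 were called, against 63 without a variance trend, 81, 81 and 78 without WKY replicate 1, 2 and 3, and 205, 137 and 201 without SHR replicate 1, 2 and 3. The cause was not tested. With 64 added to the linear signals the difference of Oasl was -0.14. With the replicate number as a block, 2 member probe sets (Ddx60 and Oas1a), 2 pathway genes and 196 of all probe sets were called. The labels state no pairing by number, and 2 of 3 SHR animals correlated best with the WKY animal of their own number. Signals near background limit Ifih1, Oas1b and 1 Dhx58 set, which were Absent on all arrays. The SHR signals of Ddx60 (5.43 to 6.23) and Oas1a (5.78 to 6.60) were Present but similarly low. The size of these 2 differences therefore depends on the offset, and with 64 added they were -1.19 and -1.03.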

Other observations

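One further probe set of the OAS cluster was outside the gene rule because its annotation names 2 genes of that cluster, so it was assigned to neither. It aligns to chromosome 12 at 43030992 to 43031570 (plus strand, Rnor5.0), among more than 1 place, and was Present on all 6 arrays. Its log2 signals were 6.48, 7.21 and 6.72 in SHR and 6.93, 7.35 and 7.45 in WKY. Unlike the Oas1a set, its strains overlapped, SHR animal 2 was the highest of its strain, and the difference of -0.44 ± 0.25 (SE) was not called (limma, adjusted p = 0.645). This set was chosen after its values were seen.

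Several genes that work beside the sensors were near or below background on these arrays. Zbp1, a sensor of left-handed nucleic acid, Traf6, an adaptor ligase, and Socs1, a feedback inhibitor of interferon signalling, were Absent on all 6 arrays in each of their probe sets. Irf5 and Socs3 were also Absent on all 6. They were left out of the strain comparison.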
